A study of Mus musculus with 9 samples.

Results

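The genes described here encode the contractile apparatus of smooth muscle, its main intermediate filament and a transcriptional coactivator that drives it. The 10 members are Acta2, Actg2, Myh11, Mylk, Tagln, Cnn1, Smtn, Lmod1, Des and Myocd, out of 19938 genes with a probe set of their own on the array. They were chosen as a set of named genes, and each had exactly 1 probe set annotated to its symbol alone. Expression was measured in 9 independent preparations of back skin from mice at postnatal day 4, with 1 array each. Skin-derived precursor cells (SKPs), which grow out of dissociated skin in culture, are on 4 arrays and were collected as spherical colonies at primary passage; neither strain nor genotype of these mice is given. 5 arrays hold cells of Sox2:EGFP reporter mice, taken by flow sorting from dissociated skin without culture as cells positive for EGFP and negative for CD34. The number of animals behind a preparation is not given in the labels. Effects of culture, of sorting and of mouse line cannot be told apart in this design. The labels also do not separate papilla from sheath cells within the sorted preparations.

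Smooth muscle contracts when its myosin is phosphorylated. Calcium and calmodulin activate myosin light chain kinase (Mylk), which phosphorylates the regulatory light chain of smooth muscle myosin (heavy chain Myh11), and the motor then pulls on filaments of smooth muscle actins (Acta2 and Actg2). Most of these genes are switched on by the serum response factor SRF, bound to CArG boxes in their control regions together with its coactivator myocardin (Myocd). In skin such genes mark arrector pili muscles, vascular smooth muscle and pericytes, and the dermal sheath, the contractile mesenchymal cup around the hair follicle. The dermal papilla, which Sox2 marks in part of the follicles, lies inside that sheath. Acta2 is also the usual marker of myofibroblasts and can be induced in cultured fibroblasts.

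Promoter sequence is shown because SRF control is known for most smooth muscle contractile genes. RefSeq promoter windows (GRCm38.p6) matched 6 of the 10 members: Acta2, Cnn1, Des, Lmod1, Mylk and Smtn. The other 4, Myh11, Tagln, Actg2 and Myocd, had no entry. A CArG box is 10 bases long, with C at both first places, G at both last places and 6 bases of A or T between. It reads the same way on both strands, so 1 search covers both. The 250 bases before the start held an exact box in 0 of these 6 members and in 1.47% of all 32851 windows of that length. With up to 1 mismatch allowed, a match was found in 2 of the 6 members, Acta2 and Lmod1, and in 18.6% of all windows. Acta2 and Lmod1 each held 2 such matches, as did 2.96% of all windows with at least that many. This search was chosen after the data were seen. The window of Acta2, chr19:34255374-34255623 on the minus strand, and that of Lmod1, chr1:135324563-135324812 on the plus strand, follow with the matches in capitals.
Acta2: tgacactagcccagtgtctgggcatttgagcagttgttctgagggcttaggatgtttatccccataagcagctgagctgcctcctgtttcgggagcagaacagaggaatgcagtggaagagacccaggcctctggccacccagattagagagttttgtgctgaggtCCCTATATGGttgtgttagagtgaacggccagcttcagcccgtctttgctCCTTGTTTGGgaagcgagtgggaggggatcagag
Lmod1: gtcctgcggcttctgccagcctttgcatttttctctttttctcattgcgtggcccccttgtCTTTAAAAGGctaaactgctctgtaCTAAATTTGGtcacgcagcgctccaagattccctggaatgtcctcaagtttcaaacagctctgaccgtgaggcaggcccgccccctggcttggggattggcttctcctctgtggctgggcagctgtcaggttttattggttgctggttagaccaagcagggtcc
In Acta2 the matches lay at -84 to -75 and at -34 to -25 from the start, and the mismatch of each was in the A/T core. In Lmod1 they lay at -189 to -180 and at -164 to -155, with the mismatch of each in a flank. These matches are descriptions of letters and show no binding. Boxes outside the 250 bases were not searched for, and 6 windows are too few for a result about the members.

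Levels are log2 RMA values (robust multi-array average, which corrects background, equalises the arrays and summarises the probes of a probe set). Detection calls were not used. The lowest 33.3% of genes by mean lay at 6.31 or under, and values in that range are called near background here, since they may not differ from it. Sorted replicates 2 and 20, referred to as the outlying pair, differed from sorted replicates 16, 17 and 18. The pair had Cd34 RNA, selected against in the sort, at 10.19 and 10.27, versus 7.31 to 7.82 on the remaining sorted arrays and 11.14 to 11.62 in SKPs. Sox2 RNA was also highest in the pair, at 9.25 and 8.97, versus 8.24 to 8.61 on the remaining sorted arrays. The mean correlation of the pair across genes with the other sorted arrays was 0.975 and 0.964, against 0.979 to 0.982 for the rest. The counts of called members are therefore given with and without this pair, and those of other lists, or single genes, where leaving it out changed them.

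Of the 10 members, 9 had lower levels in SKPs and 0 had higher ones (limma, threshold 0.05 after Benjamini-Hochberg adjustment across the whole table). Over all 19938 genes, 16.9% were lower and 20.2% higher. The median log2 fold change of the members was -2.78, beside 0.07 over all genes. In these 9 members every SKP array lay below every sorted array, a pattern found in 15.5% of all genes. 8 members were at least 2-fold lower and 0 at least 2-fold higher, against 6.25% and 5.46% of all genes. Without the outlying pair, again 9 members were lower and 0 higher, where 21.1% and 25.4% of all genes were. As bulk RNA was measured, fewer cells of a type and less RNA per cell cannot be told apart. In 5 members, Actg2, Myh11, Cnn1, Des and Myocd, the SKP mean was in the range near background, so their folds are approximate.

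**Figure D1:**
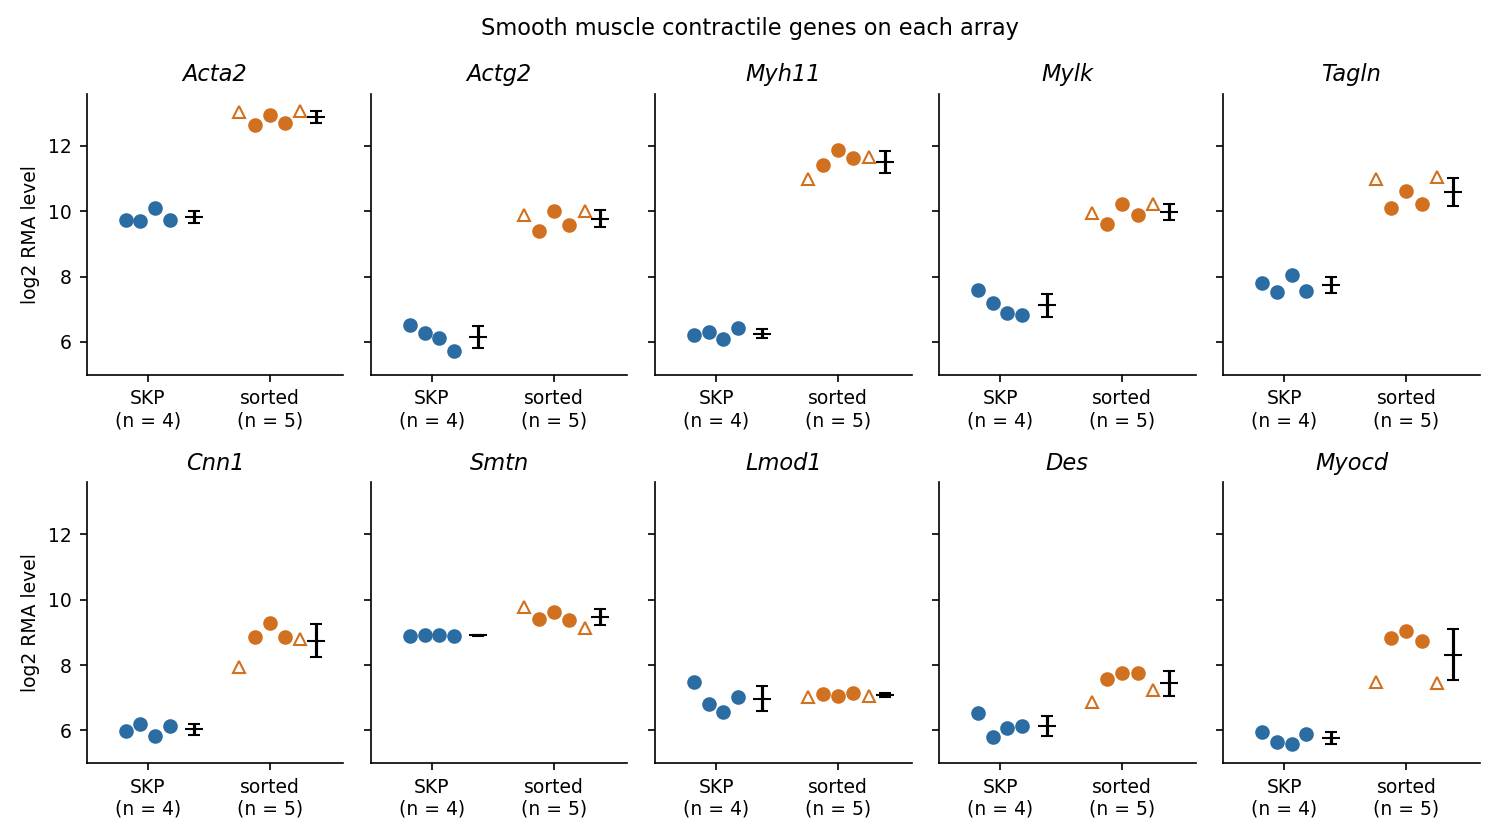
Log2 RMA level (vertical axis) of the 10 members on each array, with SKPs in blue (n = 4) and sorted cells in orange (n = 5); open triangles are sorted replicates 2 and 20, and black marks are mean ± SD. In 9 panels the groups do not overlap, while the 4 SKP values of Lmod1 lie on both sides of its sorted values.

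The actins of the thin filament were among the members with the larger differences. Acta2, the alpha actin of vascular smooth muscle and myofibroblasts, was at 9.73, 9.69, 10.10 and 9.74 on SKP replicates 3 to 6. On sorted replicates 2, 16, 17, 18 and 20 it was at 13.05, 12.65, 12.95, 12.69 and 13.06. Every SKP value of Acta2 was thus well above the range near background, and every sorted value was higher by at least 2.55 on the log2 scale. Its SKP mean was 9.82 ± 0.19 (SD, n = 4) and its sorted mean 12.88 ± 0.20 (SD, n = 5), which is 8.36-fold lower (log2 fold change -3.06, SE 0.12, adjusted p = 9.93e-08).

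Actg2, the gamma actin of visceral smooth muscle, was at 6.51, 6.26, 6.13 and 5.72 in SKPs and at 9.90, 9.41, 10.01, 9.57 and 9.996 in the sorted cells. The SKP values of Actg2 were near background on replicates 4, 5 and 6 and just above that range on replicate 3, whereas all sorted values were clear of it. It was 12.3-fold lower (log2 fold change -3.62, SE 0.18, adjusted p = 3.71e-07). Of the striated muscle actins, close relatives of both, Acta1, of skeletal muscle, was higher in SKPs (log2 fold change 0.96, adjusted p = 0.00173), and Actc1, of cardiac muscle, was not called (1.00 on the same scale, adjusted p = 0.0944). Actc1 was at 8.32 to 9.09 in SKPs, at 7.36 to 7.72 on sorted replicates 2, 16, 17 and 18 and at 9.51 on replicate 20. It was higher without replicate 20 (1.40, adjusted p = 2.06e-04) and without the outlying pair (1.49, adjusted p = 1.54e-04). Probe sequences were not used here, so how far these probe sets tell the actins apart was not tested.

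The motor and the kinase that switches it on were both lower. Myh11, the smooth muscle myosin heavy chain, was at 6.22, 6.31, 6.09 and 6.41 in SKPs, at or close to background. In the sorted cells Myh11 was at 10.99, 11.40, 11.86, 11.62 and 11.64, with replicate 2 the lowest. The gap between the highest SKP array and the lowest sorted array was 4.58, the widest of the 10 members. Its log2 fold change of -5.24 (SE 0.16, adjusted p = 2.03e-08) was the most negative of the 10 members. Mylk, the kinase, was at 7.59, 7.18, 6.88 and 6.82 in SKPs and at 9.94, 9.62, 10.21, 9.87 and 10.23 in the sorted cells. The groups of Mylk were separated by 2.03, and the gene was 7.24-fold lower (log2 fold change -2.86, SE 0.18, adjusted p = 1.65e-06).

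The actin-binding members did not move by like amounts. Tagln (transgelin, or SM22), an actin-bundling protein, was at 7.80, 7.52, 8.06 and 7.56 in SKPs and at 10.97, 10.10, 10.61, 10.21 and 11.05 in the sorted cells. It was 7.23-fold lower (log2 fold change -2.85, SE 0.21, adjusted p = 5.40e-06), and its highest sorted values were those of the outlying pair. Cnn1 (calponin), which restrains actomyosin, was at 5.98, 6.19, 5.83 and 6.14 in SKPs and at 7.93, 8.86, 9.29, 8.86 and 8.80 in the sorted cells. Its SKP values were all near background and its lowest sorted value was that of replicate 2. Cnn1 was 6.56-fold lower (log2 fold change -2.71, SE 0.23, adjusted p = 1.17e-05).

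Smtn (smoothelin), a protein of the actin filaments of contractile smooth muscle cells, kept a high level in both groups. It was at 8.88, 8.93, 8.93 and 8.90 in SKPs and at 9.76, 9.42, 9.63, 9.37 and 9.15 in the sorted cells. The groups of Smtn were only 0.21 apart, and the gene was 1.47-fold lower (log2 fold change -0.56, SE 0.12, adjusted p = 0.00415). Its SKP arrays spanned 0.05, the narrowest SKP range of the 10 members. Lmod1 (leiomodin), which starts new actin filaments, was the member not called. Its values were 7.48, 6.82, 6.57 and 7.04 in SKPs and 7.04, 7.11, 7.06, 7.15 and 7.05 in the sorted cells. The SKP values of Lmod1 enclosed all the sorted ones, with a log2 fold change of -0.11 (95% interval -0.45 to 0.24, adjusted p = 0.632). That interval lies within 2-fold in either direction. Acta2, 8.36-fold lower, and Lmod1, not called, were the members whose promoter windows held CArG matches. Cnn1, Des, Mylk and Smtn were lower with no match in theirs. Boxes outside these windows were not searched for, and a link between matches and fold changes was not tested.

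Des and Myocd completed the set. Des (desmin), the intermediate filament protein of muscle cells, was at 6.52, 5.79, 6.07 and 6.14 in SKPs and at 6.88, 7.59, 7.77, 7.75 and 7.25 in the sorted cells. The groups of Des did not overlap but lay only 0.36 apart, and it was 2.49-fold lower (log2 fold change -1.32, SE 0.21, adjusted p = 6.32e-04). Myocd, the SRF coactivator, was at 5.95, 5.64, 5.59 and 5.91 in SKPs, all near background. On the sorted arrays Myocd fell into separate levels, at 7.47 and 7.46 on replicates 2 and 20 and at 8.83, 9.06 and 8.75 on replicates 16, 17 and 18. It was 5.82-fold lower in SKPs (log2 fold change -2.54, SE 0.35, adjusted p = 2.66e-04), and 8.62-fold lower without those replicates (adjusted p = 2.29e-07).

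The members did not share a single pattern across the sorted arrays. On both arrays of the outlying pair, Tagln and Acta2 were above all of replicates 16, 17 and 18, by a mean of 0.71 and 0.29 on the log2 scale. Myocd, Cnn1, Des and Lmod1 were below all of those 3 arrays on both, with mean differences of -1.41, -0.64, -0.64 and -0.06. Actg2, Mylk, Smtn and Myh11 were on neither side throughout. The mean of the 10 members was 9.39 on sorted replicate 2 and 9.57 on replicate 20, below or inside the 9.50 to 9.85 of the remaining sorted arrays. In SKPs it was 7.02 to 7.27. These are descriptions of single arrays and were not tested.

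Cell type markers differed on the same arrays. The mean of 10 papilla genes was 10.38 and 9.73 in the outlying pair but 11.93 to 12.14 in the remaining sorted arrays. SKPs spanned 6.33 to 6.61, with 10 of 10 genes lower, beside 16.9% of all genes. The mean of 10 pericyte genes went the other way, at 8.63 and 8.94 in the pair but 8.05 to 8.34 in the rest of the sorted arrays, and SKPs spanned 7.45 to 7.83. In that list 3 genes were lower in SKPs, 2 higher and 5 not called, beside 16.9% lower and 20.2% higher of all genes. Without the outlying pair 4 were lower, Abcc9 (-0.24) being added, and 2 higher, beside 21.1% and 25.4%. The higher counts are near these shares and are no result about the list. Rgs5, a regulator of G protein signals and a defining pericyte gene, was at 10.89 and 10.57 in the pair, versus 8.02 to 9.54 in the rest, and SKPs spanned 5.44 to 5.70. Not all genes of the list were raised in the pair. The receptor Pdgfrb was at 10.38 and 10.01 in the pair, versus 10.81 to 10.96 in the rest. It was higher in SKPs (log2 fold change 1.35, adjusted p = 4.21e-04). The channel gene Kcnj8 was at 5.78 on replicate 2 and 7.46 on replicate 20, versus 5.79 to 6.02 in the rest. Abcc9, also a channel gene, was at 6.79 and 8.20, versus 6.43 to 6.50. Kcnj8 and Abcc9 were not called with all arrays. Rgs5, Kcnj8, Abcc9 and Pdgfrb were singled out after their values were seen. The part of pericytes in the members' differences was not tested.

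**Figure D2:**
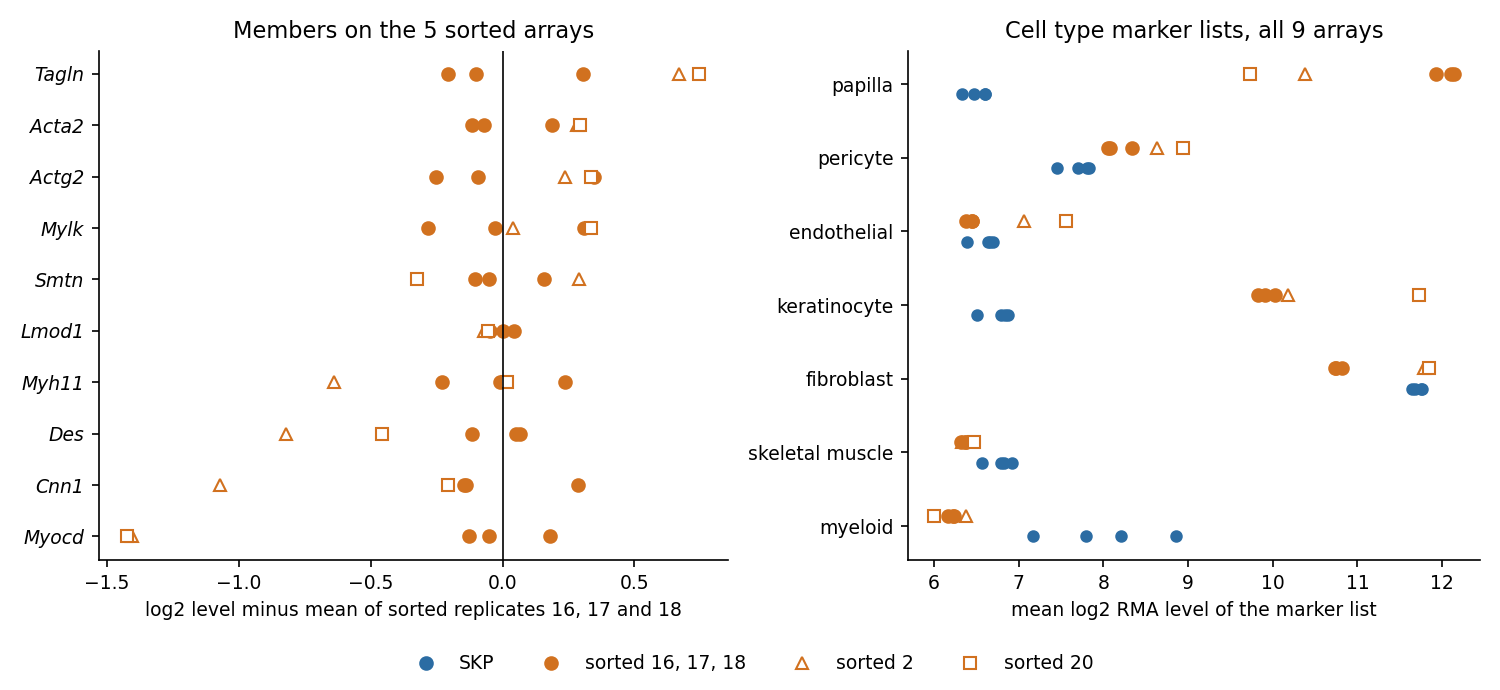
Left, level of each member on the 5 sorted arrays relative to the mean of sorted replicates 16, 17 and 18 (log2). Right, mean log2 RMA level of cell type marker lists on all 9 arrays, with SKPs in blue and sorted arrays in orange, open for replicate 2 (triangle) and 20 (square). Myocd is lowest and Tagln highest on the open symbols, where the papilla mean is lower and the pericyte, endothelial, keratinocyte and fibroblast means are higher.

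Genes proposed to mark the dermal sheath and the arrector pili niche were followed as well. Of 4 measured sheath genes outside the members 3 were lower in SKPs and 0 higher, beside 16.9% and 20.2% of all genes. Without the outlying pair 4 were lower and 0 higher, beside 21.1% and 25.4%. The list mean was 7.94 to 8.25 in SKPs and 9.68 to 10.65 in the sorted cells. Acan, the cartilage-type proteoglycan aggrecan, was at 9.44 and 9.02 in the outlying pair, versus 6.75 to 7.01 in the rest, and SKPs spanned 5.44 to 6.44 (adjusted p = 0.0392). Leaving out sorted replicate 2, sorted replicate 20 or any SKP array ended that call, with an adjusted p of up to 0.104, while without both arrays of the pair it was lower by a smaller amount (log2 fold change -0.80, adjusted p = 0.0120). Mef2c, a transcription factor of muscle, was 10.58 to 11.22 on all sorted arrays and 8.09 to 8.35 in SKPs. Of 4 arrector pili niche genes 2 were lower, Npnt (nephronectin, -1.90) and Hhip (-5.96), and 0 higher, beside 16.9% and 20.2% of all genes. Without the outlying pair 3 were lower and 1, Tbx18 (0.25), higher, beside 21.1% and 25.4%. Hhip was at 11.75 and 10.62 in the pair, versus 12.91 to 13.07 in the rest, and SKPs spanned 5.99 to 6.65. The pair was thus lowest for Hhip, as for the papilla mean, and which cells gave its difference was not tested. The list mean was 8.03 to 8.24 in SKPs and 9.73 to 10.60 in the sorted cells. Itga8, the integrin that binds nephronectin, is on both the sheath and the arrector pili list and is counted in each. It was at 10.30 and 9.96 in the outlying pair, versus 11.67 to 11.76 in the rest, the reverse of Acan. SKPs spanned 10.50 to 10.74. Itga8 was not called with all arrays but was lower without the outlying pair (-1.08).

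Marker lists of other cell types were followed too, and their part in the members' differences was not tested. Their counts stand beside the 16.9% lower and 20.2% higher of all genes, and counts without the outlying pair beside 21.1% and 25.4%. Skeletal muscle shares Des with smooth muscle, and 12 of its 19 marker genes were higher in SKPs and 0 lower. The list mean was 6.57 to 6.91 in SKPs and 6.32 to 6.47 in the sorted cells. Among the higher genes, Myh1, Neb, Mylpf, Ttn, Myl1, Myog, Actn2 and Myh8 had sorted means near background, at 5.18 to 6.28. In Myh1 and Neb the SKP mean was near background too (5.43 and 6.22). Myh1, Actn2 and Tnni2 each lost the call on leaving out any of 5 single arrays, and Myl1 on any of 6. Of 6 cardiac muscle genes 2 were higher and 0 lower, at a mean of 6.90 to 7.27 against 6.60 to 6.997. The call of Myh6 was lost on leaving out any of 5 single arrays, and that of Tnnt2 on any of 6. Myh6 was near background in both groups, with means of 5.66 in SKPs and 5.31 in the sorted cells. Without the outlying pair the skeletal muscle list had 1 lower gene, Myh3 (-0.94), and 11 higher. The cardiac list then had 1 lower, Myh7 (-0.30), which is near the share of all genes, and 3 higher. Of 10 endothelial genes 2 were lower and 0 higher (2 and 3 without the outlying pair), with an SKP mean of 6.39 to 6.70. Their mean was 7.06 and 7.55 in the outlying pair and 6.37 to 6.45 in the rest. Of the 2 lower genes, Kdr lost its call on leaving out any of 6 single arrays and Erg on any of 5. The endothelial counts of 2 lower, and of 3 higher without the outlying pair, are near the shares of all genes and are no result about the list. All 10 keratinocyte genes were lower, with an SKP mean of 6.50 to 6.87. Their mean was 10.18 on sorted replicate 2 and 11.73 on replicate 20, above the 9.83 to 10.03 of the rest. Of 9 fibroblast genes 4 were higher and 1 lower (6 and 2 without the outlying pair), with an SKP mean of 11.64 to 11.77. Their mean was 11.78 and 11.84 in the outlying pair and 10.74 to 10.82 in the rest. All 10 myeloid genes were higher, at 7.17 to 8.86 against 6.00 to 6.37. Of 7 melanocyte genes 5 were lower and 1 higher, at 6.80 to 7.13 against 8.16 to 8.79, and all 5 measured Schwann cell genes were lower, at 6.43 to 6.84 against 8.71 to 9.42. No value on this scale is 0.

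Beyond the members, 84 other genes, listed by role around smooth muscle contraction, were measured. The lists also hold genes of striated muscle and of non-muscle cells, and regulators such as the repressor Klf4. Of the 84 genes 37 were lower in SKPs, 10 higher and 37 not called, with a median log2 fold change of -0.30. Over all genes 16.9% were lower and 20.2% higher, with a median of 0.07. Without the outlying pair 41 of the 84 were lower and 11 higher, beside 21.1% and 25.4% of all genes. At least 2-fold differences were found in 16 lower and 2 higher genes, against 6.25% and 5.46% of all genes. The count of higher genes was 6 without SKP replicate 3 and 6 without SKP replicate 6, beside 17.6% and 17.0% of all genes. These lists were drawn up with earlier results of these data known.

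**Figure D3:**
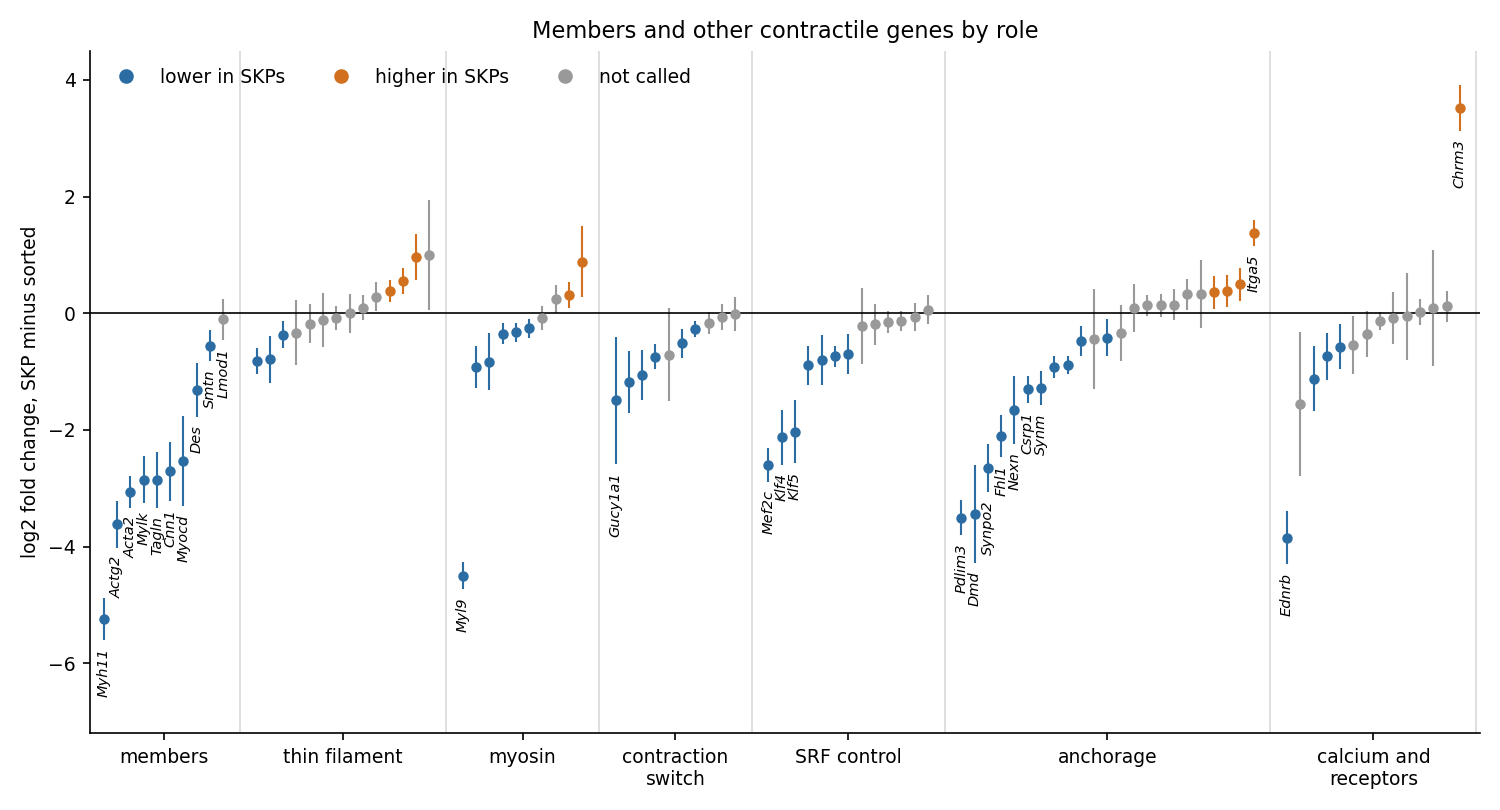
Log2 fold change of SKPs minus sorted cells (vertical axis, points with 95% confidence intervals) for the 10 members and the other genes grouped by role. Blue points were called lower, orange higher and grey not called; of the 10 members 9 are blue, while the thin filament list holds 3 blue and 3 orange points.

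The thin filament list held genes shared with other muscle types and with non-muscle cells, and 3 of its 14 genes were lower, 3 higher and 8 not called (3 lower and 4 higher without the outlying pair). These shares are near the 16.9% and 20.2% of all genes (21.1% and 25.4% without the pair) and are no result about the list. Tpm2, a tropomyosin that lies along the actin filament, was lower (log2 fold change -0.82, SE 0.10, adjusted p = 1.25e-04), as was Tagln3, a relative of transgelin (log2 fold change -0.79, adjusted p = 0.00640). The higher members were led by Acta1 and by Lmod3, the skeletal muscle leiomodin (log2 fold change 0.55, at 6.01 to 6.36 in SKPs and 5.53 to 5.76 in the sorted cells). Tpm1 and Cald1 (caldesmon), named after their values were seen, were bright in both groups and not called, at -0.18 on the log2 scale for Tpm1 (adjusted p = 0.393) and 0.10 for Cald1 (adjusted p = 0.478).

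In the myosin list 6 of 10 genes were lower, 2 higher and 2 not called (6 lower and 1 higher without the outlying pair). Of all genes 16.9% were lower and 20.2% higher (21.1% and 25.4% without the pair), so the count of 2 higher is near its share. Myl9, the regulatory light chain that Mylk phosphorylates, was at 7.08, 7.15, 7.34 and 7.18 in SKPs and at 11.57, 11.53, 11.82, 11.58 and 11.94 in the sorted cells. The groups of Myl9 were far apart on every array, and it was 22.6-fold lower (log2 fold change -4.50, SE 0.11, adjusted p = 6.04e-09). Its non-muscle relatives Myl12a and Myl12b, chosen after their values were seen, were lower by far less (log2 fold change -0.35 and -0.26), and Myl12b was not called after median centring. Myh14, a non-muscle heavy chain, was lower (log2 fold change -0.92, adjusted p = 0.00133). Myh10, another non-muscle heavy chain, was higher, at 10.86 to 11.31 in SKPs and 9.68 to 11.05 in the sorted cells (log2 fold change 0.88, adjusted p = 0.0277). That call was lost on leaving out any of 6 arrays, SKP replicates 3, 5 and 6 and sorted replicates 16, 17 and 18. Mylk4, the other higher gene, was under 5 on every array and no difference is claimed for it. Myh9, the main non-muscle heavy chain, also chosen after its values were seen, had a log2 fold change of -0.09 (adjusted p = 0.492); after quantile normalization it was called lower, at -0.21.

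Among genes that set the balance of myosin phosphorylation, 6 of 10 were lower, 0 higher and 4 not called, beside 16.9% lower and 20.2% higher of all genes. Gucy1a1, a subunit of the nitric oxide receptor of smooth muscle and pericytes, was at 8.05 and 9.28 in the outlying pair, versus 6.63 to 7.10 in the rest, and SKPs spanned 5.88 to 6.32 (log2 fold change -1.49, adjusted p = 0.0354). Its call was lost on leaving out any SKP array or sorted replicate 2, and its log2 fold change was -0.75 without the outlying pair. Ppp1r14a (CPI-17), the smooth muscle inhibitor of myosin phosphatase, was lower (log2 fold change -1.18, SE 0.24, adjusted p = 0.00308). The phosphatase targeting subunit Ppp1r12a was lower as well (-0.75, adjusted p = 1.59e-04). Ppp1r12a was chosen after its values were seen.

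In the SRF control list 7 of 13 genes were lower, 0 higher and 6 not called (7 lower and 1 higher without the outlying pair). Of all genes 16.9% were lower and 20.2% higher (21.1% and 25.4% without the pair). Mef2c (log2 fold change -2.60, SE 0.13, adjusted p = 3.90e-07) and Klf4 (-2.13, SE 0.21, adjusted p = 3.30e-05) had the largest decreases. Klf4 is known as a repressor of smooth muscle genes and is also expressed by keratinocytes, of whose markers 10 of 10 were lower on the same arrays. Srf itself was at 8.41, 8.29, 8.50 and 8.33 in SKPs and at 8.67, 9.31, 9.48, 9.09 and 8.86 in the sorted cells. The groups of Srf did not overlap, with the lowest sorted values in the outlying pair, as for Myocd. Srf was lower (log2 fold change -0.70, SE 0.16, adjusted p = 0.00557). The myocardin relative Mrtfb was lower too (-0.81, adjusted p = 0.00779), at 10.14 and 9.96 in the outlying pair, versus 9.24 to 9.35 in the rest, and SKPs spanned 8.71 to 8.84. Mrtfa, the other actin-regulated relative, was not called (-0.13, adjusted p = 0.195). Srf, Mrtfa and Mrtfb were named after their values were seen.

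Genes that anchor filaments to the membrane and to dense bodies formed the longest list, with 11 of 23 lower, 4 higher and 8 not called. Without the outlying pair 12 were lower, Itga8 being added, and 4 higher, with Sgcb (0.38) in place of Pdlim7. Fermt2, called lower, and Pdlim7 and Palld, called higher, each lost the call on leaving out any of 7 single arrays. Of all genes 16.9% were lower and 20.2% higher (21.1% and 25.4% without the pair), so the higher counts are near their share. Pdlim3, which binds alpha-actinin, was at 6.45 to 6.998 in SKPs and 10.16 to 10.60 in the sorted cells (log2 fold change -3.51, SE 0.13, adjusted p = 7.27e-08). Dmd (dystrophin) was at 8.18 and 7.92 in the outlying pair, versus 9.27 to 9.96 in the rest, and SKPs spanned 5.36 to 5.64 (log2 fold change -3.44, SE 0.38, adjusted p = 6.23e-05), and its log2 fold change was -4.04 without the pair. The order of the sorted arrays in Dmd thus put the pair lowest, as in Myocd and Des. Synpo2, Csrp1 and Vcl (vinculin), chosen after their values were seen, were lower by 2.66, 1.30 and 0.92 on the log2 scale. Itga5, the fibronectin receptor subunit, was higher, at 9.86 to 10.30 in SKPs and 8.58 to 8.81 in the sorted cells (log2 fold change 1.37, SE 0.10, adjusted p = 4.75e-06). Pdlim5 was also higher (0.50, adjusted p = 0.0111).

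Calcium channels and contractile receptors were mostly not called, with 4 of 14 lower, 1 higher and 9 not called, beside 16.9% and 20.2% of all genes. Without the outlying pair 7 were lower and 1 higher, beside 21.1% and 25.4% of all genes. Ednrb, an endothelin receptor, was lower (log2 fold change -3.85, SE 0.20, adjusted p = 5.52e-07). Ednrb is also a melanocyte gene; of 7 melanocyte genes 5 were lower and 1, Mitf, higher (1.61), and their part in the difference was not tested. Ryr2, an intracellular calcium channel, was at 7.47 and 7.67 in the outlying pair, versus 6.56 to 6.79 in the rest, and SKPs spanned 5.61 to 6.19 (log2 fold change -1.12, adjusted p = 0.00571). Chrm3, the muscarinic receptor through which acetylcholine contracts smooth muscle, went against the members. It was at 8.87, 9.26, 8.85 and 9.65 in SKPs and at 5.92, 5.45, 5.48, 5.51 and 5.84 in the sorted cells. All sorted values of Chrm3 were near background, and it was higher in SKPs by 3.52 on the log2 scale (SE 0.18, adjusted p = 4.26e-07). The L-type calcium channel Cacna1c, chosen after its values were seen, was not called with all arrays (-0.55, adjusted p = 0.0852) and was lower without sorted replicate 20 (-0.72) and without the outlying pair (-0.90).

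The genes most like Acta2 and Myh11 over the 9 arrays were found by the root mean square difference of log2 levels after each gene was centred on its own mean. Those nearest to Acta2 were Sema3d (0.14), Zfp36 (0.15), Slc16a7 (0.17), Nr4a1 (0.17) and Mboat2 (0.23). None of these encodes a contractile protein; Zfp36, which destabilises mRNA, and Nr4a1, a nuclear receptor, are immediate early genes. Those nearest to Myh11 were the Hedgehog receptor Ptch1 (0.34), the secreted inhibitor Sostdc1 (0.34), the desmosomal gene Dsp (0.42), Myl9 (0.43) and the Notch target Hey2 (0.45). Myl9 was the one contractile gene among these 10 neighbours. The measure is dominated by the difference between the groups, so genes with a like difference come out as near.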

How the data were processed

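The authors' deposited table holds log2 RMA values for 35556 probe sets on 9 arrays (Affymetrix Mouse Gene 1.0 ST, per the series' design text). RMA, Affymetrix Expression Console and limma are named without settings, per the submitters' processing notes. No genome build is given in the sources used here. Of the probe sets, 21789 carry 1 gene symbol, 1621 several and 12146 none in the platform annotation. For 999 genes with several probe sets the one with the highest mean was taken. The Entrez identifiers of all 10 members gave the same symbol in RefSeq.

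SKPs (n = 4) and sorted cells (n = 5) were compared with limma 3.58.1 in R 4.3.3 (lmFit and eBayes, no trend, two-sided), fitted over 19938 genes with Benjamini-Hochberg adjustment and a threshold of 0.05. The calculation was tested on simulated data. "Lower" and "higher" are used of called genes, and of single array values as plain description. Intervals are 95% confidence intervals of the fit. Precision is limited by how many arrays there are.

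The members, role lists, marker lists and alternatives were chosen with earlier results of these data known. All members are named. Of each role list the 2 called genes with the largest increase and decrease are named, and for Acta2 and Myh11 the 5 nearest genes in the upper part of the range by mean level, leaving out unnamed gene models. Of 91 role genes 84 were measured; the others are not analysed here. Alternatives were quantile normalization, median centring, a filter on low genes, a mean over probe sets, array weights, trend and robust fitting, an adjusted p under 0.01, a 2-fold limit, and leaving out each array or both sorted replicates 2 and 20. Plots used matplotlib 3.10.9 (Python 3.11.15).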

Additional observations from a re-analysis of the deposited data

Results flagged for a closer look

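Acta2 on SKP replicate 5 was at 10.10, above the 9.69 to 9.74 of the other 3 SKP arrays, and this gap made up most of the range of the group. It was the 1 such value among 20 sets of array values looked at (10 members in 2 groups), and chance alone gives about 1 in 20. Without SKP replicate 5 the log2 fold change of Acta2 was -3.16. The same array had the highest mean of the myeloid markers, at 8.86 against 7.17 to 8.21 on the other SKP arrays, and the highest Tagln of the SKP arrays, at 8.06; the part of either was not tested.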

How the results depend on the processing

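The 9 members called lower stayed lower and past the threshold under each of 17 alternatives, with an adjusted p of at most 0.0143 (Smtn), and the median of the members lay between -2.87 and -2.69. Lmod1 was not called under any of them (adjusted p 0.0879 to 0.940), and without SKP replicate 5 its log2 fold change turned to 0.030, within a range of -0.27 to 0.030 when each array was left out. With a 2-fold limit 8 members were lower, beside 6.25% of all genes. Of the 84 genes of the role lists, 37 were lower and 10 higher with all arrays, beside 16.9% and 20.2% of all genes. With array weights 16 were higher, beside 30.8%, and 5 were higher at an adjusted p under 0.01, beside 13.9%. With a 2-fold limit 16 were lower and 2 higher, beside 6.25% and 5.46%. Leaving out each array in turn gave 33 to 39 lower and 6 to 10 higher. The shares of all genes were then 14.2% to 18.8% lower and 17.0% to 22.9% higher. No paired analysis was possible because the preparations were independent and the labels name no animal or preparation shared by the groups. Every member had a single probe set, so a mean over probe sets could not change its values, and testing each probe set on its own gave no further value. The filter on low genes, trend and robust fitting and the stricter threshold also left the members' log2 fold changes as they were. These alternatives are thus no separate checks of the size of a difference. Signal near background limits the folds of Actg2, Myh11, Cnn1, Des and Myocd.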
